A study of Mus musculus with 51 samples.

Results

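Mouse hepatocyte libraries labelled as triple null for FoxA1, FoxA2 and FoxA3 were compared with libraries labelled as carrying lox-flanked FoxA1 and FoxA2, undeleted. The comparison used 7 of the 51 samples of the series, 4 RNA libraries labelled FoxA triple null and 3 labelled FoxA1/A2 lox. The name triple null is that of the labels, since Foxa1 RNA remained in these libraries at 48.8% of the lox mean. It tested 10819 of the 33773 gene symbols in the deposited expression matrix. A gene entered the test with at least 1 RPKM in 3 or more of the 7 libraries and with a value above 0 in at least 1 library of each group. RPKM is a read count divided by gene length and by library size.

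The triple null mice carried lox-flanked FoxA1 and FoxA2 alleles on a FoxA3-/- background (FoxA1 L/L, FoxA2 L/L, FoxA3-/-). They received, at 8 weeks of age, an adeno-associated virus of serotype AAV8 with Cre recombinase under the thyroid-binding globulin (Tbg) promoter, which is active in hepatocytes. Tissue and genotype are all that the labels give for the lox group: hepatocytes with lox-flanked FoxA1 and FoxA2, undeleted, with FoxA3 present. Age, virus and diet of the lox mice are not given in the sources used here. The groups therefore differ in FoxA3 as well as in FoxA1 and FoxA2, and possibly in virus and in the set of libraries. Levels in 2 more sets of 4 hepatocyte libraries are set beside them without a test. FoxA3 null mice have the alleles of the triple null and received a virus with GFP in place of Cre. Cre alfp libraries have FoxA1 and FoxA2 deleted with FoxA3 present. The labels number the libraries of a group but do not say whether each came from its own animal, so p-values measure the spread between these libraries.

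FoxA1, FoxA2 and FoxA3 are forkhead transcription factors that bind closely related DNA sequences. They are known as pioneer factors, proteins that can bind their sites in closed chromatin and open them for other regulators, and in liver they bind many regulatory regions together with HNF4a. The hepatocyte is the main source of plasma proteins and of enzymes for bile acid, nitrogen, lipid and drug metabolism. The comparison asks how much of that programme differs between libraries labelled triple null and undeleted lox libraries.

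Foxa3, which was absent from the germline of the triple null, was listed at 0.00638, 0, 0 and 0.0114 RPKM in triple null replicates 1 to 4 and at 29.6, 19 and 26.3 RPKM in lox replicates 1 to 3. Foxa2 had 0.243, 0.428, 0.323 and 0.47 RPKM in triple null libraries and 6.84, 19.2 and 11.3 RPKM in lox. Its mean was thus 2.94% of that in lox (log2 difference -3.31, SE 0.30, limma adjusted p 0.000138). Foxa2 and Foxa3 were under 1 RPKM in every triple null library and passed the RPKM minimum through lox alone. Foxa1 had 3.39, 3.63, 3.04 and 3.06 RPKM in triple null libraries and 7.25, 8.21 and 4.71 RPKM in lox. The groups did not overlap, but 48.8% of the lox mean remained, and the log2 difference of -0.96 (SE 0.19, limma adjusted p 0.00586) missed the minimum of 1 set for a call. In Cre alfp, the remaining Foxa1 level was lower, 1.14 to 1.34 RPKM. The matrix gives 1 value per gene, so reads over deleted and undeleted exons could not be separated. Without lox replicate 3, or without triple null replicate 1, Foxa1 was called lower, with log2 differences of -1.20 and -1.01. It was also called lower with a pseudocount of 0.1 (-1.14).

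**Figure D1:**
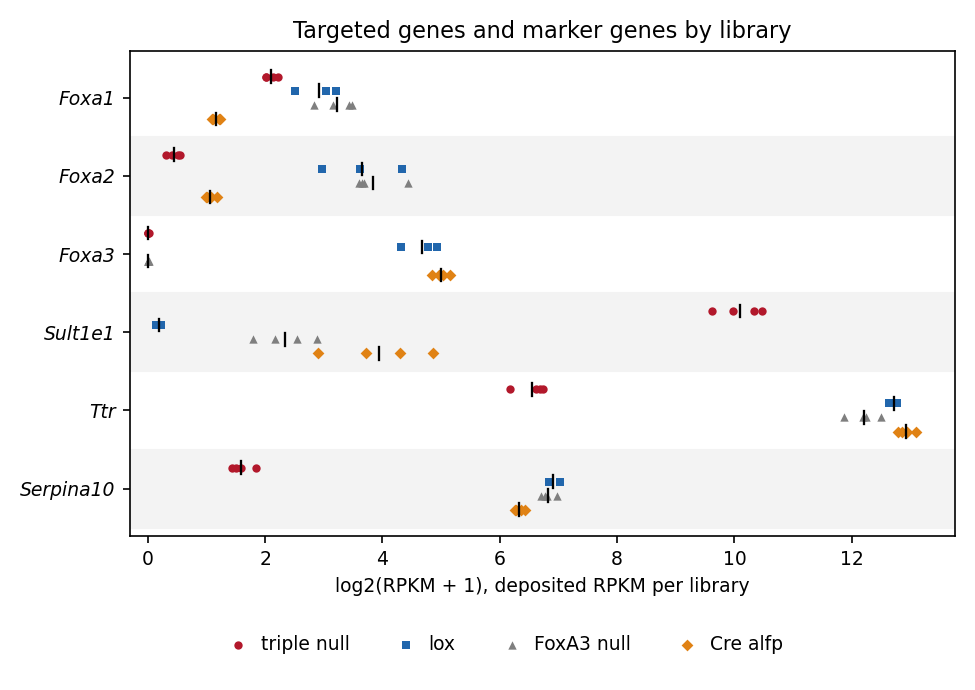
Expression of the 3 targeted genes and of Sult1e1, Ttr and Serpina10 in every hepatocyte library, as log2(RPKM + 1) on the horizontal axis; each symbol is 1 library (4 triple null, 3 lox, 4 FoxA3 null, 4 Cre alfp) and each black tick is a group mean. Foxa1 stays between the lox and the Cre alfp level in the triple null, while Sult1e1 lies above, and Ttr and Serpina10 lie below, all other libraries there.

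Hepatocyte markers were present in both groups. Albumin (Alb) was at 9868 to 14628 RPKM in the triple null and 23575 to 27355 RPKM in lox, and apolipoprotein B (Apob) at 682 to 883 and 661 to 815 RPKM. Alb was called lower (log2 difference -1.23, limma adjusted p 0.00148), as were the markers Cps1 (-1.49) and Trf (-2.43). Apob, Ass1 and Ahsg were not called, with log2 differences of -0.18, -0.11 and -0.61. Absolute depth is unknown. Low values gave depth relative to the shallowest library, 1 to 1.19 in the triple null and 1.11 to 1.85 in lox. The first principal component separated the groups and held 70.9% of the variance; the second, with 9.81%, set lox replicate 3 and triple null replicate 3 apart from the rest. Y-linked Ddx3y was at 14.9 to 19.4 RPKM and Xist was at most 0.363 RPKM in the 7 libraries, so the groups did not differ in sex. A further 28 genes that met the RPKM minimum were at 0 in a whole group and were not tested, 16 at 0 in the triple null and 12 at 0 in lox. Of these, 24 had names of predicted genes, clones, pseudogenes or small RNAs. Of the 16, 14 were also at 0 in all FoxA3 null libraries, and of the 12, 8 were above 0 in all FoxA3 null libraries. Of the 14, mt-Tl1 was at 4843 to 12030 RPKM in lox and 8495 to 11139 RPKM in Cre alfp. FoxA3 genotype and a difference between sets of libraries thus cannot be told apart for these genes. The tested genes come from the same libraries, so the same limit holds for their differences between the groups.

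Of the 10819 genes, 1422 (13.1%) were called, with an adjusted p under 0.05 and an absolute log2 difference of at least 1. Of them, 662 (6.12% of tested genes) were higher and 760 (7.02%) lower in the triple null. Differences are triple null minus lox on the log2(RPKM + 1) scale after each library was scaled to a common median, which understates the change of low genes. The median over all tested genes was 0.01. Without scaling it was 0.15, and 876 genes were higher and 622 lower (58.5% of calls higher, against 46.6%). On the scaled values, all 4 triple null libraries lay above all 3 lox libraries in 25% of tested genes and below them in 22.1%.

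Sult1e1, the estrogen sulfotransferase that adds sulfate to estrogens, showed the largest rise among the named genes. It was at 1411, 1007, 1289 and 786 RPKM in the triple null and at 0.163, 0.102 and 0.156 RPKM in lox (log2 difference 9.83, SE 0.21, limma adjusted p 1.96e-07). Since every lox library was under 1 RPKM, its direction was fixed by the RPKM minimum, and the p is given as a description. It was at 2.46 to 6.37 RPKM in FoxA3 null and 6.51 to 28.2 RPKM in Cre alfp. Ttr, which encodes transthyretin, the plasma carrier of thyroxine and of retinol-binding protein, fell from 6950, 6343 and 7000 RPKM to 102, 70.9, 106 and 97 RPKM (log2 difference -6.34, SE 0.17, limma adjusted p 3.05e-07). Its level stayed high in FoxA3 null (3719 to 5799 RPKM) and in Cre alfp (7080 to 8786 RPKM). Serpina10, a plasma inhibitor of coagulation factor Xa, fell from 113, 130 and 114 RPKM to 1.85, 1.99, 2.59 and 1.69 RPKM (log2 difference -5.46, SE 0.12, limma adjusted p 2.24e-07). These 3 genes were among those named with results of these data known, so their size is a description.

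Beyond Sult1e1, the called genes with the largest rise were Mup9, Spink3, Apoa4, Cyp17a1, Hamp2, Cidec, Scd2, Lcn2, Orm3, Anxa2 and Ly6d. Spink3, a trypsin inhibitor gene best known from the exocrine pancreas, was at 83.4, 188, 117 and 102 RPKM in the triple null and at 0.478, 1.11 and 0 RPKM in lox (log2 difference 6.23, SE 0.31, limma adjusted p 6.35e-06). Cyp17a1, the steroid 17-alpha-hydroxylase, was at 133, 82.3, 146 and 110 RPKM against 3.14, 1.43 and 3.58 RPKM (log2 difference 4.88). Both genes were high in every triple null library and low in every other hepatocyte library, with at most 3.6 RPKM of Spink3 and 14.9 RPKM of Cyp17a1. Anxa2, which encodes a calcium-dependent membrane-binding protein, was at 31.1 to 67.3 RPKM in the triple null and 0.796 to 2.15 RPKM in lox. Ly6d varied most within the triple null, with 22.6, 102, 11 and 31.8 RPKM against 0.425, 1.1 and 0.212 RPKM. Spink3 and Ly6d reached 1 RPKM in only 1 lox library, so they met the RPKM minimum through the triple null. Their direction was thus set by the filter, and the p of Spink3 is given as a description. Scd2, a fatty acid desaturase of fetal and newborn liver, was at 32.5, 16.2, 23.4 and 31.9 RPKM in the triple null and at most 0.124 RPKM in lox. Cre alfp libraries, at 11.4 to 22.6 RPKM, overlapped the triple null through triple null replicate 2. Scd2 passed the RPKM minimum through the triple null alone. Of the 12 highest genes, 9 were higher in every triple null library than in all 11 other hepatocyte libraries; Mup9, Hamp2 and Scd2 were not. Over all tested genes the share was 9.13%, and the 12 had been chosen for not overlapping lox, so nothing is read from the count.

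Among the 12 lowest genes were Mup11, Selenbp2, Vtn, Mup21, Mup20, Ttr, Pemt, Mup14, C8b, Cyp2c50 and Ces1c. Vtn, which encodes the plasma adhesion protein vitronectin, fell from 3617, 3657 and 3780 RPKM to 13.2, 13.2, 16.6 and 17.4 RPKM (log2 difference -8.01, SE 0.12, limma adjusted p 4.28e-08). It was at 1425 to 2851 RPKM in FoxA3 null and 2805 to 3512 RPKM in Cre alfp. Pemt, the enzyme that makes phosphatidylcholine from phosphatidylethanolamine, fell from 579, 524 and 666 RPKM to 6.99, 7.58, 5.77 and 10.3 RPKM (log2 difference -6.27, SE 0.19, limma adjusted p 4.9e-07). Selenbp2, a selenium-binding protein gene with higher expression in males, fell from 484, 617 and 160 RPKM to 0.224, 0.111, 0.615 and 0.216 RPKM, and passed the RPKM minimum through lox alone. Selenbp2 differed from Vtn and Pemt in the other groups, since it was already at 9.49 to 20.7 RPKM in FoxA3 null and at 2.16 to 25.6 RPKM in Cre alfp. Of the 12 lowest genes, 10 were lower in every triple null library than in all 11 others; Mup11 and Mup14 were not. The share over all tested genes was 4.65%, and these 12 too were chosen for not overlapping lox.

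**Figure D2:**
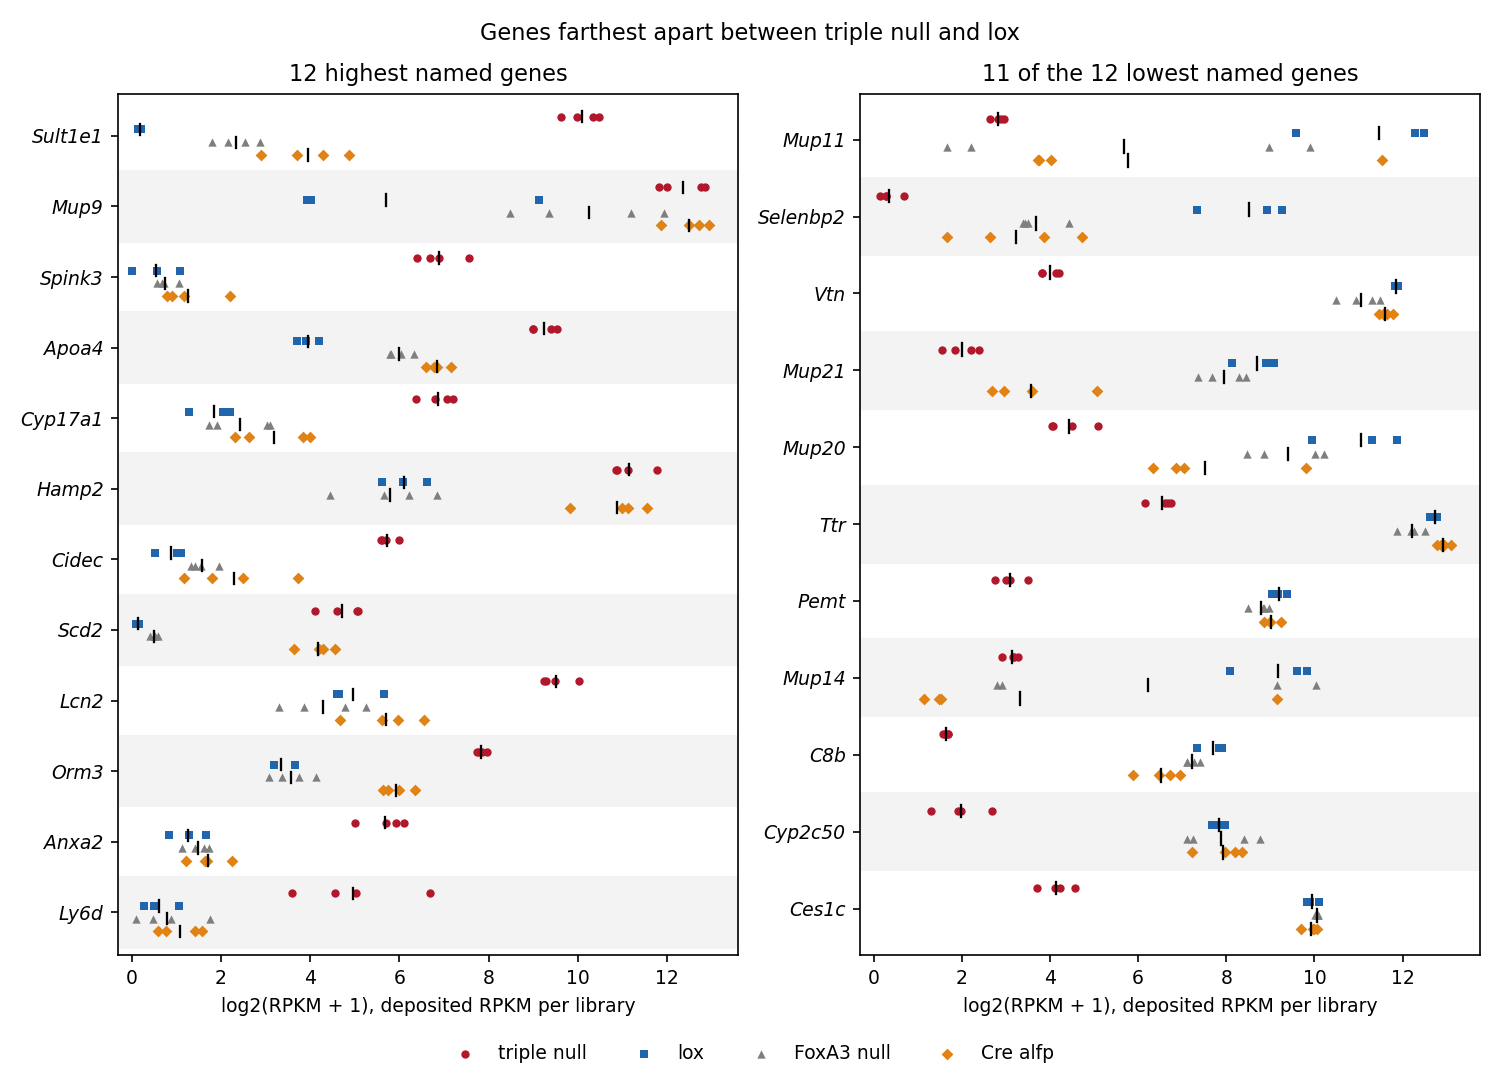
Log2(RPKM + 1) in each hepatocyte library for the 12 highest (left) and 11 of the 12 lowest (right) named genes of triple null against lox; symbols are single libraries of the 4 groups and black ticks are group means. Triple null points stand apart from all other points for 9 genes on the left and 9 on the right, while Mup9, Hamp2 and Scd2 overlap with Cre alfp.

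The window of 250 bases before the RefSeq gene start (assembly GRCm38.p6) was searched for 2 letter strings known from FoxA binding motifs, TGTTTAC and TATTTAC, and for the HNF4a string CAAAGTCCA, on both strands. The table of windows had no entry for Serpina10. FoxA letters were present in 45 of 618 windows (7.28%) of genes called lower, in 19 of 499 (3.81%) of genes called higher, in 3.86% of windows of tested genes not called and in 5.76% of all 32851 windows. The HNF4a string was rarer, with 0.647%, 0.601%, 0.38% and 0.384% in the same order. Of the 90 genes named by rule, 63 had a window and 7 held FoxA letters, 6 of them called lower (Ugt2b1, F11, Cyp8b1, Cry1, Serpinf2 and Igfals) and 1 not called (Foxa1). Most named genes were chosen for being called, so nothing is read from this split. It counts genes, while the shares before it count windows. A match is a description of letters, not a binding site. The windows below are those of the gene that rose most, of the gene that fell most and, chosen after their values were seen, of the 3 lowest named genes with FoxA letters, which are in capitals as is the HNF4a string; all lie on the minus strand and read 5′ to 3′ toward the gene. Sult1e1 is at chr5:87591612-87591861, Mup11 at chr4:60662396-60662645, Ugt2b1 at chr5:86926504-86926753, Cyp8b1 at chr9:121916306-121916555 and F11 at chr8:45262032-45262281.
Sult1e1: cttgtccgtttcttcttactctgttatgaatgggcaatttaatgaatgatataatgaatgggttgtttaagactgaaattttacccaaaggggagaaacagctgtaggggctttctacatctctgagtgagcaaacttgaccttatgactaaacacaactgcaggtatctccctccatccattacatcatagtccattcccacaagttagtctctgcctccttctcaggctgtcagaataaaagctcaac
Mup11: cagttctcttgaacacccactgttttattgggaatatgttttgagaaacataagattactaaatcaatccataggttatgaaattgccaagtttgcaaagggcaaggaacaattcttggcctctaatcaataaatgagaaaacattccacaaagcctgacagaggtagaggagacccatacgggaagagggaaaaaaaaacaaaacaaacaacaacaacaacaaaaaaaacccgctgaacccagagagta
Ugt2b1: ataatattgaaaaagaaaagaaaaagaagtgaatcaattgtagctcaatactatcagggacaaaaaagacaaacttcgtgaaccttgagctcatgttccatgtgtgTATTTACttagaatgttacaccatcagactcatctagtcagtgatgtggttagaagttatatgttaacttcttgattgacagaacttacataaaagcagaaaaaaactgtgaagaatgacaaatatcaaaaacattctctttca
Cyp8b1: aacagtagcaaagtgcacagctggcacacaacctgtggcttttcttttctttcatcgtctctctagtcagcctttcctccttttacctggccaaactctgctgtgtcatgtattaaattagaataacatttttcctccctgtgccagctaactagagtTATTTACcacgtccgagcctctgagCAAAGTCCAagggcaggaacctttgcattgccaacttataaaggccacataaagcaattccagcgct
F11: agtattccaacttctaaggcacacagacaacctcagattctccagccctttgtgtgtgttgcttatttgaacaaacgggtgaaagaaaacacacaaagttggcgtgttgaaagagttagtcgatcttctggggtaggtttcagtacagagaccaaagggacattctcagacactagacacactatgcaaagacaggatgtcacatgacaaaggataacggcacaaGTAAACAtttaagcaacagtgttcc
The FoxA letters start 144 bases before the start of Ugt2b1, a glucuronosyltransferase gene, and 92 bases before that of Cyp8b1, where the HNF4a string follows at 67 bases. In F11, the coagulation factor XI gene, they start 25 bases before the start and read on the reverse strand. Neither set of letters occurs in the windows of Sult1e1 and Mup11.

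Of 27 tested transcription factors of the liver network, 3 rose, none fell and 24 were not called. The share called, 11.1%, was near the 13.1% of all tested genes. The median log2 difference was 0.15, but 0.03 without triple null replicate 1 and -0.02 without lox replicate 2. Hnf4a was at 134, 134, 195 and 116 RPKM in the triple null and at 124, 78.7 and 102 RPKM in lox, so the groups overlapped (log2 difference 0.34, SE 0.18, limma adjusted p 0.173). Cebpa, a factor that drives hepatocyte differentiation, rose from 99.7, 89.9 and 140 RPKM to 249, 229, 361 and 229 RPKM (log2 difference 1.11, SE 0.19, limma adjusted p 0.00303). In FoxA3 null, Cebpa was likewise at 202 to 284 RPKM, overlapping the triple null, and in Cre alfp at 133 to 182 RPKM. Tbx3 was also called higher, with a log2 difference of 1.12. It lost its call without lox replicate 3 (0.94) and without an RPKM minimum (limma adjusted p 0.0542). In the authors' deposited table Tbx3 was at 0.62 and was not called. Without triple null replicate 3, or without lox replicate 2, only 1 of the 3 was called higher; Cebpa then had a log2 difference of 0.99 both times. Members called lower numbered 2 without lox replicate 1, and 1 without lox replicate 2 or triple null replicate 1, 2 or 4.

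**Figure D3:**
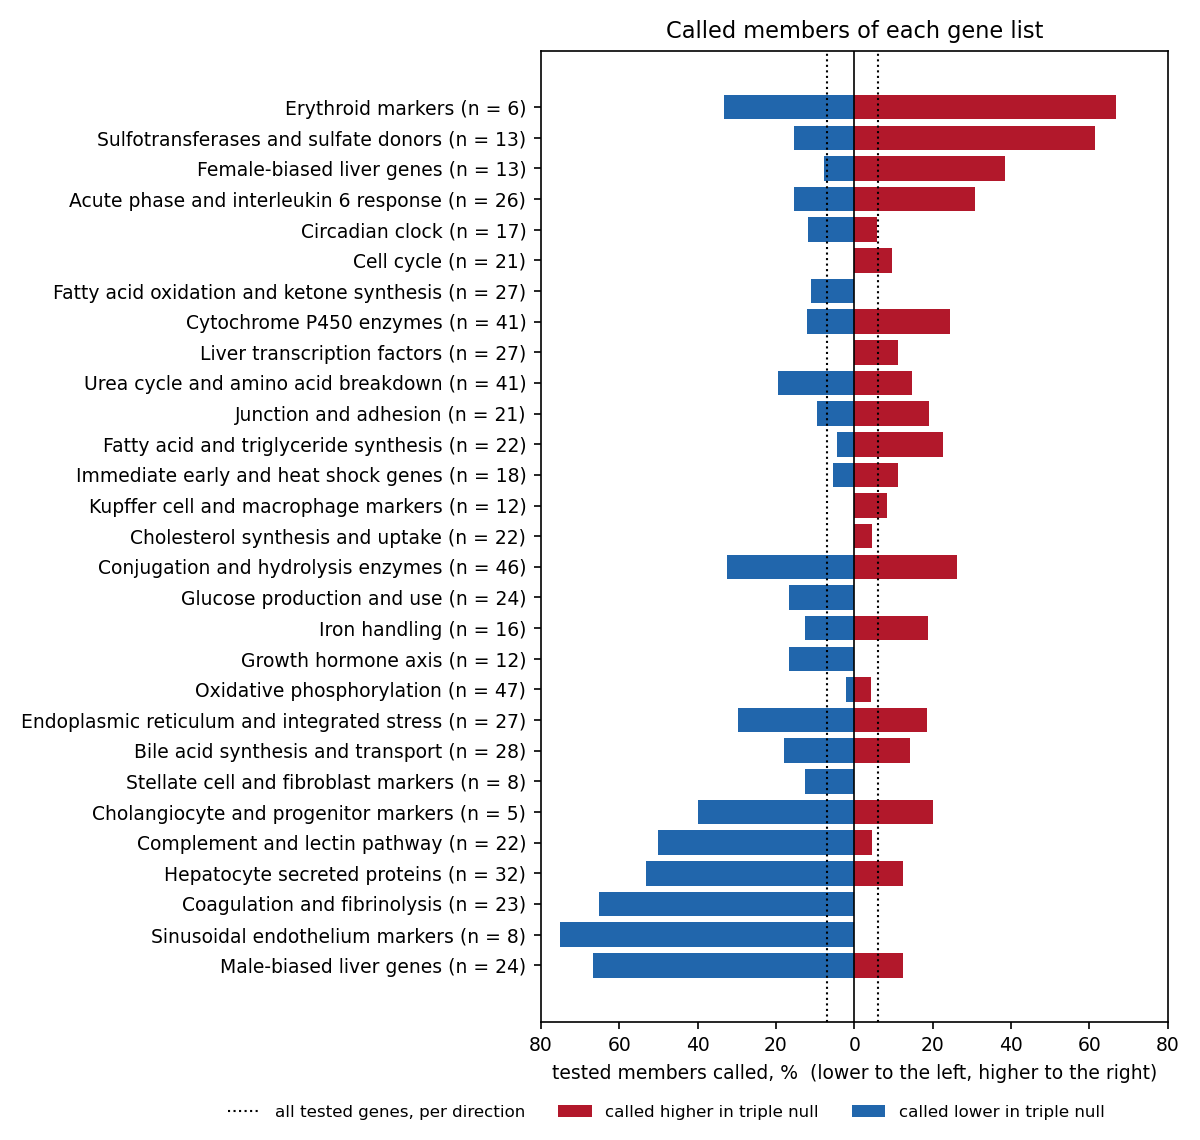
Share of the tested members of each gene list that were called lower (blue, to the left) or higher (red, to the right) in the triple null, in percent; the number of tested members is in parentheses, lists are ordered by their median log2 difference, and dotted lines give the share among all tested genes in each direction (7.02% lower, 6.12% higher). Members that passed the RPKM minimum through 1 group alone are included, 5 of 13 among sulfotransferases. Coagulation, complement, secreted protein, male-biased and sinusoidal endothelium lists extend far to the left, and oxidative phosphorylation stays near or under the dotted lines.

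Genes for secreted plasma proteins fell more often than they rose. Of 32 tested, 17 fell (background 7.02%), 4 rose and 11 were not called, with a median log2 difference of -1.12 against 0.01 for all genes. Apoa1, the main protein of high-density lipoprotein, fell from 9794, 9272 and 8367 RPKM to 222, 176, 187 and 171 RPKM (log2 difference -5.76, SE 0.16, limma adjusted p 3.34e-07). Its neighbours in the apolipoprotein cluster differed in direction. Apoa5 fell from 343, 389 and 557 RPKM to 18.9, 38.2, 42.2 and 37.9 RPKM. Apoa4, a component of triglyceride-rich particles, rose from 12.1, 14.1 and 17.3 RPKM to 677, 508, 735 and 508 RPKM (log2 difference 5.12, SE 0.18). Apoc3, an inhibitor of lipoprotein lipase, rose from 6809, 7197 and 6975 RPKM to 17961, 17044, 14359 and 17032 RPKM (log2 difference 1.07). Triple null and lox libraries did not overlap for any of these 4 genes.

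In a second pair, Apoc2, the cofactor of lipoprotein lipase, rose from 507 to 631 RPKM in lox to 5352 to 6958 RPKM, while Apoc4 fell from 3250 to 4132 RPKM to 1510 to 2042 RPKM. The heavy chains of the inter-alpha-trypsin inhibitor, Itih1 to Itih4, and Ambp, which encodes its light chain, all fell, with log2 differences of -3.49, -3.79, -2.44, -1.42 and -4.36. Itih2, as an example, went from 190, 219 and 215 RPKM to 14.2, 13.9, 18.9 and 17.1 RPKM. Trf, the transferrin gene, fell from 6059, 5270 and 7102 RPKM to 1169, 1322, 1404 and 1221 RPKM (log2 difference -2.43). Rbp4, the retinol-binding protein carried by transthyretin, was at 2750 to 3127 RPKM against 3033 to 3445 RPKM and was not called (log2 difference -0.31, limma adjusted p 0.0525).

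Of 23 tested coagulation and fibrinolysis genes, 15 fell (background 7.02%), none rose and 8 were not called (median log2 difference -1.22). F11 fell from 45.7, 41.6 and 21 RPKM to 0.672, 0.885, 1.03 and 0.737 RPKM (log2 difference -4.40). Plg, the plasminogen gene, fell from 654, 675 and 755 RPKM to 112, 87.5, 164 and 127 RPKM, and Serpinf2, which inhibits plasmin, from 256, 270 and 239 RPKM to 38.7, 28.9, 62.9 and 42 RPKM. Prothrombin (F2) and antithrombin (Serpinc1) fell less, by 1.28 and 1.29 on the log2 scale. F9 showed no such change, at 47.3 to 75.8 RPKM in the triple null and 44.8 to 49.8 RPKM in lox (log2 difference 0.06, limma adjusted p 0.749). Among the fibrinogen chains, Fgb was called lower (log2 difference -1.22), while Fga and Fgg, at -0.65 and -0.86, were not.

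Of 22 tested complement and lectin genes, 11 fell (background 7.02%), 1 rose (background 6.12%) and 10 were not called (median log2 difference -1.09). C8b, a chain of the membrane attack complex, fell from 239, 228 and 160 RPKM to 2.24, 2.22, 1.98 and 2.06 RPKM (log2 difference -6.19, SE 0.17, limma adjusted p 3.34e-07). C6 and Hc, which encode other parts of that complex, fell by 3.66 and 3.39 on the log2 scale. C1s, the protease of the classical pathway, fell from 466, 315 and 178 RPKM to 13.3, 22.4, 18.7 and 12.4 RPKM. C4bp, a soluble inhibitor, fell from 147, 138 and 167 RPKM to 6.21, 11.2, 13.4 and 5.5 RPKM. The member that rose was C3, the central component, from 739, 758 and 822 RPKM to 1927, 1832, 3375 and 2250 RPKM (log2 difference 1.39, SE 0.19, limma adjusted p 0.000995).

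Acute phase genes split. Of 26 tested members, 8 rose (background 6.12%), 4 fell and 14 were not called. Of the 8, Cd14 and Il1rn were under 1 RPKM in every lox library and so passed the RPKM minimum through the triple null alone. Lcn2, an iron-siderophore binding protein, rose from 23.2, 49.1 and 24 RPKM to 619, 713, 1034 and 601 RPKM (log2 difference 4.37, SE 0.29, limma adjusted p 2.8e-05). Orm3 rose from 8.14, 8.09 and 11.7 RPKM to 230, 214, 218 and 247 RPKM, and Saa1 from 291, 406 and 292 RPKM to 1326, 1870, 6248 and 2391 RPKM. In the opposite direction, Hp, the haptoglobin gene, fell from 4617, 4838 and 3513 RPKM to 152, 658, 539 and 244 RPKM (log2 difference -3.82), and Serpina3n from 115, 125 and 100 RPKM to 2.89, 2.6, 5.15 and 2.55 RPKM (log2 difference -4.92). Serum amyloid A, orosomucoid and Serpina3 genes have near-identical copies that share reads. The sum of Saa1, Saa2 and Saa3 was 1637 to 8602 RPKM in the triple null and 416 to 583 RPKM in lox, so it was higher in each triple null library.

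Of 16 tested iron genes 3 rose (background 6.12%) and 2 fell (background 7.02%), or 1 fell without lox replicate 2 or 3. Hamp2, a paralog of the hepcidin gene, rose from 97.8, 66.9 and 47.8 RPKM to 3477, 1849, 1889 and 2209 RPKM (log2 difference 4.88). Hamp itself, the hormone that limits iron release, overlapped between groups (792 to 7441 RPKM against 2134 to 8785 RPKM, limma adjusted p 0.343). The sum of Hamp and Hamp2 also overlapped, at 2681 to 9650 RPKM and 2201 to 8833 RPKM. Hamp2 was at 897 to 2970 RPKM in Cre alfp and 20.8 to 114 RPKM in FoxA3 null.

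Of 13 tested members of a list of sulfotransferases and enzymes that make the sulfate donor, 5 (Sult1e1, Sult2a1, Sult2a2, Sult2a3 and Sult2a6) were under 1 RPKM in every lox library. They passed the RPKM minimum through the triple null alone, so their direction was fixed by the filter. Of the other 8, 3 rose, 2 fell and 3 were not called. Of all 10368 tested genes with at least 1 RPKM in some library of each group, 528 rose and 647 fell. Sult1d1 rose from 77.6, 59.2 and 85.8 RPKM to 483, 727, 745 and 811 RPKM (log2 difference 3.03, SE 0.17, limma adjusted p 1.29e-05), and Sult1a1 from 174, 133 and 165 RPKM to 663, 639, 888 and 622 RPKM. Papss2, which makes the sulfate donor PAPS, rose from 18.2, 17.9 and 43.9 RPKM to 146, 142, 234 and 159 RPKM. The 2 that fell were Sult1b1 (9.37 to 14.6 RPKM in lox, 1.67 to 2.54 RPKM in the triple null) and 2810007J24Rik.

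Among genes with higher expression in male than in female mouse liver, 16 of 24 tested fell (background 7.02%), 3 rose (background 6.12%) and 5 were not called (median log2 difference -2.60). C6 and C8b are counted here and among the complement genes. The list also holds 6 Mup symbols, of a family in which many copies share reads. Without them 12 of 18 tested genes fell and 3 rose (median -2.30), and of the 12 Selenbp2 was under 1 RPKM in every triple null library. Slco1a1, an organic anion transporter gene, fell from 67.6, 66.2 and 65.7 RPKM to 1.14, 1.1, 1.66 and 1.75 RPKM (log2 difference -4.96, SE 0.13, limma adjusted p 3.05e-07). The members that rose were Cyp4a12a, Cyp4a12b and Ugt2b38, with log2 differences of 2.23, 1.77 and 2.85. Of 26 female-biased genes 13 were tested, and 3 of them (Abcd2, Atp6v0d2 and Slc22a26) passed the RPKM minimum through the triple null alone. Of the other 10, 2 rose (Cyp17a1 and Hamp2) and 1 fell (Cyp4a14), against 528 and 647 of the 10368 genes with at least 1 RPKM in both groups. Of the 13, none was called lower without lox replicate 1 or 2, and 2 were without triple null replicate 4. Atp6v0d2, a subunit of the proton pump of acidic vesicles, rose from 0.103, 0.0915 and 0.326 RPKM to 8.43, 6.58, 13.5 and 9.99 RPKM. Of 12 tested genes of the growth hormone axis, 2 fell (Igfbp2 and Igfals), a share of 16.7% near the 13.1% of all genes; Ghr was at 136 to 206 RPKM against 127 to 185 RPKM.

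The major urinary protein genes (Mup) encode pheromone carriers made in large amounts by male liver, and many of their copies are nearly identical and share reads. Of 21 symbols, 7 rose, 6 fell, 7 were not called and 1 was not tested, against 6.12% higher and 7.02% lower over all tested genes. Of the 7, Mup2 was under 1 RPKM in every lox library, so its direction was fixed by the RPKM minimum. Mup11 fell from 5773, 4993 and 764 RPKM to 6.72, 5.27, 6.44 and 6.05 RPKM (log2 difference -8.78, SE 0.64, limma adjusted p 4.8e-05). Mup3 fell from 15133, 14274 and 11522 RPKM to 461, 547, 432 and 454 RPKM. Mup10 rose from 2943, 3833 and 3244 RPKM to 23987, 27134, 32346 and 27374 RPKM. The symbols summed to 45293, 41332, 46891 and 50191 RPKM in the triple null and to 35633, 36740 and 20372 RPKM in lox. After each library was scaled, the sums were 47272, 38020, 41083 and 48792 in the triple null and 37512, 40876 and 21271 in lox, so the groups overlapped on the scale used for the calls. Single symbols moved by far more in either direction, and the assignment of reads to single copies is uncertain.

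**Figure D4:**
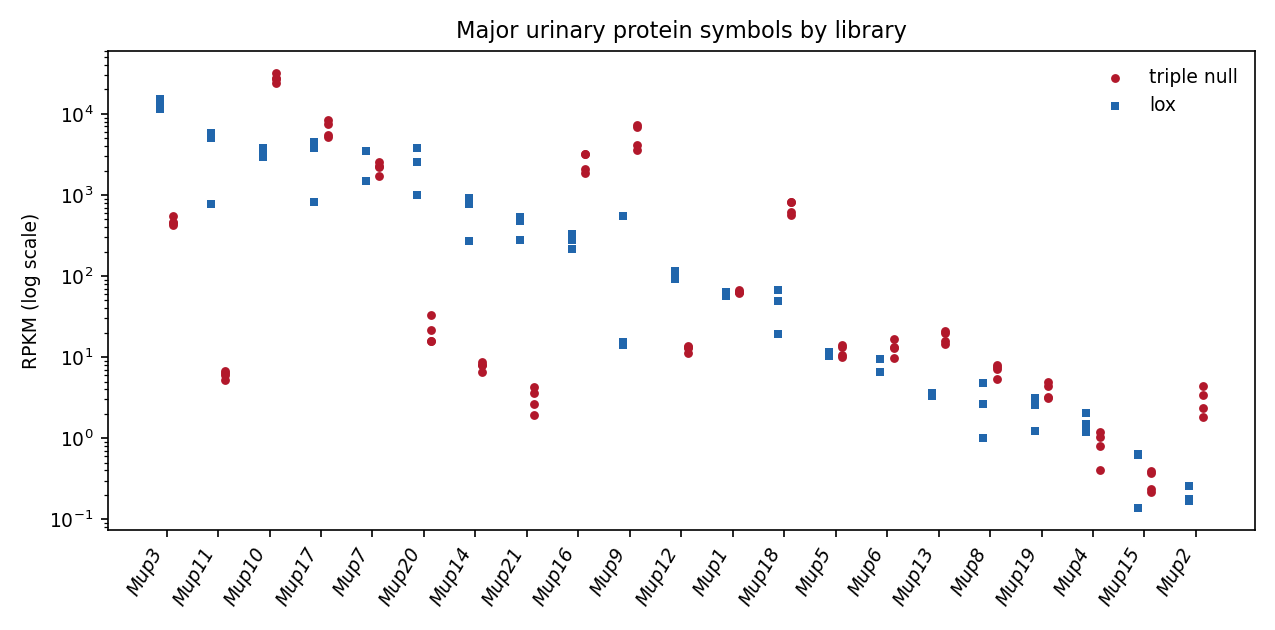
RPKM on a log axis of the 21 major urinary protein symbols in the 4 triple null (circles) and 3 lox libraries (squares), ordered by the lox mean. Mup3, Mup11, Mup20, Mup14, Mup21 and Mup12 lie below lox and Mup10, Mup16, Mup9, Mup18, Mup13, Mup8 and Mup2 above it.

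In the list of urea cycle and amino acid breakdown, 8 of 41 genes fell (background 7.02%) and 6 rose (background 6.12%). Without scaling, and with quantile normalization, 5 fell. Cps1, the first enzyme of the urea cycle, fell from 199, 162 and 288 RPKM to 82.3, 87.5, 143 and 47.6 RPKM, while Ass1 overlapped at 128 to 172 RPKM against 89 to 243 RPKM. Hao1, a peroxisomal glycolate oxidase, fell from 102, 123 and 120 RPKM to 1.03, 0.956, 1.62 and 1.52 RPKM (log2 difference -5.82, SE 0.14, limma adjusted p 3.05e-07). Glul and Rhbg, the glutamine synthetase and an ammonium transporter of hepatocytes around the central vein, rose by 1.26 and 2.59 on the log2 scale.

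Of 28 bile acid genes, 5 fell (background 7.02%) and 4 rose (background 6.12%). Cyp8b1 is among the 5 and passed the RPKM minimum through lox alone; of the other 27 genes 4 fell. Cyp8b1, the sterol 12-alpha-hydroxylase that directs synthesis to cholic acid, fell from 120, 75.8 and 33.3 RPKM to 0.313, 0.246, 0.276 and 0.548 RPKM (log2 difference -5.78, SE 0.37, limma adjusted p 2.46e-05). Cyp7a1, the rate-limiting enzyme, was at 7.83 to 22.2 RPKM against 3.9 to 21.3 RPKM and was not called (limma adjusted p 0.585). The transporters Slc10a1 and Abcb11 were not called either, with log2 differences of -0.17 and -0.77. Without lox replicate 3, 8 members were called lower.

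Among 22 genes of fatty acid and triglyceride synthesis, 5 rose (background 6.12%) and 1 fell (background 7.02%), or 2 fell without triple null replicate 1 or lox replicate 1. Cidec, a lipid droplet protein, rose from 0.43, 1.15 and 1.03 RPKM to 47.7, 46.8, 62.3 and 51.2 RPKM (log2 difference 4.72, SE 0.17, limma adjusted p 1.17e-06). Plin2, another droplet protein, rose from 185, 165 and 111 RPKM to 375, 571, 631 and 455 RPKM, and Cd36, a fatty acid carrier, from 2.15, 5.06 and 5.3 RPKM to 28.4, 26.6, 49 and 26.7 RPKM. Fasn was not called, with 83.2 to 184 RPKM against 102, 46.7 and 506 RPKM. Of 22 cholesterol genes 1 rose and none fell, a share of 4.55% under the 13.1% of all genes; 2 rose without lox replicate 3, and 1 fell without triple null replicate 1 or lox replicate 2. Among 27 fatty acid oxidation genes 3 fell (Acot1, Cyp4a14 and Acadvl), a share of 11.1% near the 13.1% of all genes, and Acot1 passed the RPKM minimum through lox alone. Among 24 genes of glucose metabolism 4 fell, G6pc, Fbp1 and Gcgr among them, a share of 16.7%. In the fatty acid oxidation list, no member was called lower without lox replicate 2 and 1 without lox replicate 1. Acadvl was not called without scaling (log2 difference -0.84) and had the opposite sign in the authors' deposited table (0.20). Up to 2 members of these lists were called higher without lox replicate 3 and 1 of each without triple null replicate 1. G6pc, the last step of glucose release, fell from 331, 374 and 412 RPKM to 78.2, 59.1, 51.3 and 179 RPKM (log2 difference -2.35, limma adjusted p 0.00368), and Pck1 was not called (log2 difference 0.58).

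Cytochrome P450 genes went both ways, with 10 of 41 higher (background 6.12%) and 5 lower (background 7.02%). Of the 10, Cyp2a22 passed the RPKM minimum through the triple null alone, and 9 of the other 40 genes were higher. Cyp2c50 fell from 248, 232 and 204 RPKM to 2.97, 1.45, 5.47 and 2.77 RPKM (log2 difference -6.01) and Cyp2c54 from 143, 136 and 133 RPKM to 4.94, 1.47, 2 and 4.78 RPKM. Cyp2c40 rose from 1.55, 2.14 and 0.0125 RPKM to 33, 25.4, 29.2 and 41 RPKM. Cyp2c genes share reads, and 15 Cyp2c symbols summed to 1258 to 1794 RPKM in the triple null against 1614 to 1765 RPKM in lox. After scaling the sums were 1292 to 1572 and 1796 to 1858, so the deposited values overlapped and the scaled values did not; the sums were not tested. Abundant Cyp2e1, Cyp3a11 and Cyp1a2 were not called, at log2 differences of 0.64, -0.74 and -0.26. Without triple null replicate 4, 6 members were called higher.

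Of 46 conjugation and hydrolysis enzymes, 12 rose (background 6.12%) and 15 fell (background 7.02%). Of the 15, Ces1g passed the RPKM minimum through lox alone, and 14 of the other 45 genes fell. Ugt2b1 fell from 248, 264 and 180 RPKM to 2.92, 2.66, 3.25 and 3.75 RPKM (log2 difference -5.94, SE 0.18, limma adjusted p 4.29e-07). Ces1c, a plasma carboxylesterase, fell from 959, 913 and 1099 RPKM to 17.8, 12, 22.6 and 16.2 RPKM, and the 8 Ces1 symbols together from 1303 to 1898 RPKM to 298 to 431 RPKM. Gstm1, a glutathione transferase, fell from 1016, 1341 and 1116 RPKM to 233, 472, 254 and 261 RPKM. Members of the same families rose: Ugt2b37 by 3.98, Gstt3 by 4.17 and Ces2c by 2.58 on the log2 scale.

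In a list of endoplasmic reticulum and integrated stress genes, 8 of 27 fell (background 7.02%) and 5 rose (background 6.12%). Of these, Vldlr and Nupr1 (higher) and Asns (lower) passed the RPKM minimum through 1 group alone. Trib3, a stress-induced pseudokinase, rose from 1.92, 3.23 and 1.45 RPKM to 21.9, 16.1, 28.3 and 13.1 RPKM. Asns, the asparagine synthetase, fell from 8.96, 8.71 and 11 RPKM to 0.203, 0.75, 0.24 and 0.384 RPKM, but it was at most 0.523 RPKM in FoxA3 null and in Cre alfp as well. Hspa5, the main chaperone of that compartment, spread widely in lox (915, 558 and 288 RPKM) and was not called against 263 to 343 RPKM. The number of members called lower was 3 without scaling, 4 without triple null replicate 3 or lox replicate 1, 5 without triple null replicate 4 and 2 without lox replicate 2. Fos and Hspa1a, marks of handling stress, were at 124 to 256 RPKM against 188 to 248 RPKM and at 0.57 to 3.46 RPKM against 0.128 to 2.37 RPKM. In the list of immediate early genes 2 of 18 rose (Klf6 and Ier3) and 1, Myc, fell, a share of 16.7% against 13.1% over all genes; Ier3 passed the RPKM minimum through the triple null alone. None was called lower without scaling, without triple null replicate 1, 3 or 4 or without lox replicate 2, and 3 were without lox replicate 3.

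Ccnd1, the cyclin of early G1 phase, rose from 6.72, 3.9 and 1.03 RPKM to 25.6, 65.6, 18.3 and 31 RPKM (log2 difference 2.79, SE 0.53, limma adjusted p 0.00519), and Pcna rose by 1.22. They were the only cell cycle genes called among 21 tested, a share of 9.52% against 13.1% over all genes; without triple null replicate 3 the number was 6. The proliferation mark Mki67 was under 1 RPKM in all 7 libraries and Top2a overlapped (0.619 to 3.55 RPKM against 0.12 to 2.45 RPKM). Of 21 junction and adhesion genes 4 rose (background 6.12%) and 2 fell (background 7.02%), among them Cdh1, the E-cadherin gene, from 10.1, 7.92 and 2.21 RPKM to 1.09, 2.42, 1.38 and 1.21 RPKM. Without lox replicate 1, 1 junction gene was called lower. Cdh1 lost its call without lox replicate 1 or 2, at log2 differences of -1.26 and -1.38 (limma adjusted p 0.0616 and 0.067). The same held without an RPKM minimum and with a pseudocount of 5. Fetal Afp stayed low, at 0.913 to 1.29 RPKM against 0.329 to 0.501 RPKM, and was not called. Of 47 oxidative phosphorylation genes, 2 rose and 1 fell, a share of 6.38% against 13.1% over all genes; without lox replicate 2, 1 rose and 2 fell.

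The clock genes Dbp and Arntl set lox replicate 3 apart from the other lox libraries. Dbp, an output gene of the clock, was at 1.7 and 5.91 RPKM in lox replicates 1 and 2, at 175 RPKM in lox replicate 3, against 253, 160, 202 and 127 RPKM in triple null libraries. Arntl, which encodes the activator BMAL1, was at 8.59 and 5.45 RPKM in lox replicates 1 and 2, at 0.329 RPKM in lox replicate 3 and at 0.445 to 1.01 RPKM in the triple null. Lox replicate 3 thus resembled the triple null and not its own group in both genes, and neither gene was called (limma adjusted p 0.0562 and 0.0814). Nr1d1, a clock repressor, was called higher, at 85.1, 76.1, 73.6 and 79.1 RPKM against 1.94, 28.8 and 15.2 RPKM, and Cry1 and Nfil3 were called lower, or 1 gene of the list without lox replicate 1. Cry1 passed the RPKM minimum through lox alone. Without lox replicate 3, 7 of 16 tested clock genes were called higher in place of 1 of 17. With all 7 libraries the background was 6.12% higher and 7.02% lower. Of 10566 genes tested without lox replicate 3, 1488 were called, 729 of them higher. Of the 1488, 1197 were among the 1422. Nr1d1, Cry1 and Nfil3 did not set lox replicate 3 apart from both other lox libraries in that way, and the part of clock gene levels in the other results was not tested.

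**Figure D5:**
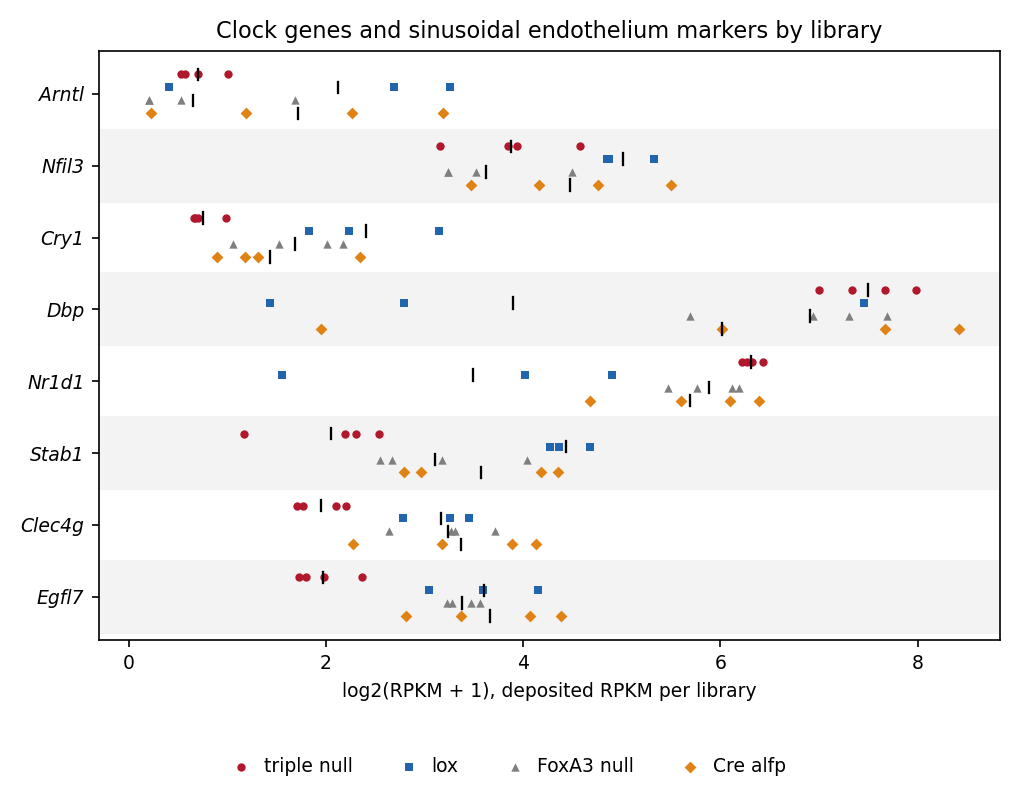
Log2(RPKM + 1) of 5 clock genes and 3 markers of liver sinusoidal endothelium in each hepatocyte library of the 4 groups; black ticks are group means. For Arntl and Dbp, 1 lox library lies with the triple null and the other 2 lie apart, and for Stab1, Clec4g and Egfl7 the triple null libraries lie below the 3 lox libraries.

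Markers of other liver cells were low and moved in part with the groups. Of 18 sinusoidal endothelium markers, 8 were tested, 6 fell (background 7.02%) and 2 were not called (median log2 difference -1.33). With a pseudocount of 5, 2 of them were called lower and the median was -0.79. Stab1, a scavenger receptor of these cells, fell from 24.6, 19.6 and 18.4 RPKM to 3.95, 3.57, 1.25 and 4.81 RPKM. The 18 summed to 14.2 to 27.9 RPKM in the triple null and 53.1 to 88.5 RPKM in lox, with Lyve1, Pecam1 and Kdr at or under 1.37 RPKM in the 7 libraries. Fewer cells of a type and less RNA per cell cannot be told apart in such bulk libraries. The 20 stellate cell and fibroblast markers summed to 19.5 to 71.5 RPKM and 60.9 to 100 RPKM and the 16 Kupffer cell and macrophage markers to 57.5 to 94.8 RPKM and 29.5 to 76.4 RPKM. Of 8 tested stellate markers 1 fell (Ecm1), and of 12 tested Kupffer markers 1 rose (Slc40a1, the iron exporter, which hepatocytes also express), shares of 12.5% and 8.33% that were under the 13.1% of all genes. Stellate markers called lower numbered 0 without triple null replicate 3 or 4 or lox replicate 2, and 2 without triple null replicate 1 or 2 or lox replicate 3. Kupffer markers called higher numbered 0 without lox replicate 1, and 1 was called lower without lox replicate 3.

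Of 15 neutrophil and monocyte markers 3 were tested (Lcn2, S100a8 and S100a9), and 11 were under 1 RPKM in all 7 libraries. S100a8 and S100a9 were under 1 RPKM in every lox library and passed the RPKM minimum through the triple null alone, so their direction was fixed by the filter; Lcn2 rose. S100a8 was at 3.93, 91.3, 19.5 and 14.9 RPKM against 0.185, 0.719 and 0.555 RPKM. The defining marker Ly6g was at 0 in every library and Mpo was at most 0.258 RPKM in the 7 libraries. The 15 markers summed to 627 to 1058 RPKM in the triple null and 24.6 to 50.9 RPKM in lox, of which Lcn2 made up most. No lymphocyte marker passed the RPKM minimum. Cholangiocyte markers Krt19 and Epcam were at most 0.261 RPKM. Of 5 tested members of that list Krt8 rose (background 6.12%) while Sox9 and Spp1 fell (background 7.02%). Neither was called lower without triple null replicate 3 or 4 or without lox replicate 1 or 2.

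Of 6 tested red cell genes 4 rose (background 6.12%) and 2 fell (background 7.02%), or 1 fell without lox replicate 2 or 3. Of the 4, Hba-a2 passed the RPKM minimum through the triple null alone. Alas2, the first enzyme of heme synthesis in erythroid cells, fell from 79.8, 82.7 and 89.5 RPKM to 1.24, 1.31, 0.715 and 0.902 RPKM (log2 difference -5.52, SE 0.14, limma adjusted p 3.05e-07). It was at 31.5 to 44.7 RPKM in FoxA3 null and 8.62 to 24.4 RPKM in Cre alfp. Globin genes did not follow it: Hba-a1 was at 2.36 to 10.2 RPKM in the triple null and 0.597 to 1.02 RPKM in lox and was called higher. Car2, a carbonic anhydrase found in red cells and other tissues, rose from 2.15, 2.88 and 0.965 RPKM to 51.4, 52.9, 63.6 and 57.5 RPKM (log2 difference 4.17). The part of cells other than hepatocytes in these results was not tested.

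The authors' deposited table for the same comparison, with its sign turned so that positive means higher in the triple null, held 9530 genes, 9274 of them tested here. By the same thresholds 1439 (15.5%) were called in the authors' deposited table. Of the genes called here 1107 are in the authors' deposited table, 1100 with the same sign, and 1009 of those 1100 are called there. The libraries behind it are not stated in that table, so it is not used as an independent measurement. In the authors' deposited table the log2 fold change was 12.82 for Sult1e1, -6.37 for Ttr, -6.06 for Serpina10, -4.30 for Foxa2 and -0.44 for Foxa1, the last with an adjusted p of 0.0588.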

How the data were processed

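RNA was extracted from hepatocytes and sequenced, per the labels' protocols. The authors deposited 1 matrix of RPKM values per library; 9 of its columns matched no sample and were not used, and 25 gene symbols had been turned into dates. The submitters' processing notes name SAMtools, Cufflinks 2.2.1, DESeq2 and mm9 without roles; the aligner and annotation are not given in the sources used here. The authors also deposited a table of log2 fold changes with p-values and adjusted p-values, per the file headers; its libraries are not stated in that file. Of the values above 0, 2.93% were under 1e-06 RPKM, so absolute depth was not recovered.

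Each library was divided by its median over tested genes (divisors 0.899 to 1.14). The test was limma 3.58.1 (R 4.3.3; eBayes with a trend) on log2(RPKM + 1), without covariates, with Benjamini-Hochberg adjustment over 10819 genes. The fit was tested on simulated data. Genes were named by rule, 90 in all. The rule took the FoxA genes, 3 markers and the 12 highest and 12 lowest called genes. The highest and lowest had a mean of at least 5 RPKM and no overlap. They were taken passing over 4 higher and 2 lower predicted genes, pseudogenes and small RNAs. Of 35 lists, those with 5 or more tested genes gave up to 3 called members each. Other genes were added for their roles after their values were seen. Members and lists were chosen with earlier results of these data known. Of 797 different genes in the lists, 786 were in the matrix. Alternatives covered scaling, pseudocount, filters, the libraries in the fit, a replicate block and leaving out each library. Promoter windows come from RefSeq, GRCm38.p6. Chromatin data were not used here, and some named genes are not reported here.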

Additional observations from a re-analysis of the deposited data

Results flagged for a closer look

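In groups of 4 libraries, the highest or lowest value was set against the other 3 by Dixon's criterion. Of 140 such groups, which did not take in every gene reported here, 10 had a value that stood apart, where chance gives about 1 in 20. Gstm1, at 472 RPKM in triple null replicate 2 and at 233 to 261 in the others, is not among the 10. In triple null replicate 3, Cebpa was at 361 RPKM (229 to 249 in the other 3 libraries), Serpina3n at 5.15 (2.55 to 2.89), Cd36 at 49 (26.6 to 28.4) and Rhbg at 43.7 (17.6 to 18.2). Of the 10, 4 thus fell in the library that the second principal component also set apart. Cry1 was at 0.988 RPKM in triple null replicate 1 and at 0.586 to 0.627 in the others.

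In the libraries set beside the comparison, Cre alfp replicate 4 held 2976 RPKM of Mup11 (12.2 to 15.3 in the other 3), 897 of Mup20 (79.3 to 130) and 564 of Mup14 (1.2 to 1.87). FoxA3 null replicate 3 held 20.6 RPKM of Foxa2 (11.1 to 11.8) and 20.7 of Selenbp2 (9.49 to 10.4).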

How the results depend on the processing

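The count of 1422 called genes (662 higher, 760 lower) ranged from 1205 to 1488 when each library was left out in turn (590 to 729 higher, 597 to 805 lower), and other scalings gave 1411 to 1498. It was 1803 with a pseudocount of 0.1 and 749 with one of 5 (336 higher, 413 lower). Without a minimum difference 4271 genes were called (2240 higher, 2031 lower), and with a minimum of 2 there were 371 (149 higher, 222 lower). Without an RPKM minimum 1332 genes were called among 20466. Setting values under 1e-06 RPKM to 0, an alternative chosen after seeing the data, gave 1418. With the replicate block, 1408 genes were called, 1308 of them among the 1422, and 3 named genes, Tbx3 and Nr1d1 among them, lost their call. The labels' replicate numbers do not pair libraries of the 2 groups: deviations of same-numbered libraries correlated at 0.0835, 0.0279 and 0.193, and triple null replicate 2 correlated best with lox replicate 1. Of the 90 named genes, 13 lost their call with a pseudocount of 5, 12 without an RPKM minimum, 10 without lox replicate 2 and 9 without lox replicate 1. Named genes that passed the RPKM minimum through lox alone, such as Foxa2 and Cry1, were not tested when a lox library was left out. Acadvl, at -1.01 here, had the opposite sign in the authors' deposited table (0.20); the cause was not tested. Values of a few RPKM are the least precise, and depth was lower in the triple null than in 2 of the 3 lox libraries.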
